A study of Homo sapiens with 2 samples.

Results

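C/D box snoRNAs are short nuclear RNAs, most of them cut from the introns of other genes. The deposited non-coding RNA table held 177 of them among 3576 RNAs. They were taken as the rows whose symbol begins with SNORD, leaving out SNORD3A, SNORD118 and SNORD13, which process ribosomal RNA or are transcribed on their own. Some snoRNAs that were kept, given below, also take part in that processing. The table compares 2 RNA sequencing libraries made for a study of how melanoma comes to resist ionizing radiation. The cells were A375, an established human melanoma line, wild type (WT) in both groups: 1 library of cells given 8 Gy of ionizing radiation (IR) and 1 of control cells at 0 Gy. Libraries were prepared with a kit for mRNA from total RNA taken up in TransZol.

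Each C/D box snoRNA carries a C box near its start and a D box near its end, which are held together by a core of proteins that includes fibrillarin, the methyltransferase. A short guide stretch just ahead of a D box, or of an internal copy of it, pairs with a target RNA and sets the base whose ribose is methylated. Most known targets lie in ribosomal RNA, some lie in the spliceosomal U6 snRNA, and orphan snoRNAs have no established target.

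The column names of the table match neither sample's labels, so no label ties either library to a dose. They are named here the numerator and the denominator library, by their place in the deposited log2 fold change, and no direction relative to dose is given. Read numbers were recovered as the smallest whole-number pair that gives each ratio, for 174 of the 177 snoRNAs, with the numerator library's reads given first. A library may have held any whole multiple of its number, and a 1 may stand for 0 reads. Folds are the deposited log2 values written as ratios, and each interval is an exact Clopper-Pearson 95% interval on the pair, which covers counting error only. Where the reads were a multiple of the pair the interval is too wide, so one that includes 1 does not show equal levels. With 1 library per dose no fold has a replicate check, and total reads per library are unknown here. Of 3 melanoma-lineage RNAs all were listed, SAMMSON, BANCR and SPRY4-IT1. Of 2 epithelial markers both were listed, of 4 fibroblast or endothelial ones 1 was, and of 3 blood markers 0 were.

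By their median, the C/D box snoRNAs as a class differed little between the libraries. Their median log2 fold change in the authors' deposited table was 0.01, against 0.16 over all RNAs and -0.05 over 95 H/ACA box snoRNAs, the class that guides pseudouridylation. Of the 177, 93 lay above 0 (52.5%), against a background of 60.9% of all RNAs, and 84 lay below. That split depends on the value taken as no difference: 70 lay above the median of all RNAs, and 108 lay above -0.13, the median log2 fold change where p in the authors' deposited table exceeds 0.95. At 2-fold or more, 15 were higher in the numerator library (8.47%, against 16.3% of all RNAs) and 8 were lower (4.52%, against 6.35%). The interval lay wholly above 1 for 24 of 174 (13.8%, against 21.4%) and wholly below 1 for 8 (4.60%, against 7.72%). At 1.5-fold or more 32 were higher (18.1%, against 28.9%) and 26 lower (14.7%, against 12.9%). At 4-fold or more 6 were higher (3.39%, against 5.03%) and 0 lower (against 1.57%).

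Few snoRNAs stood apart in the authors' deposited table: 3 of the 177 had q under 0.05 (1.69%, against 0.839% of all RNAs). An unadjusted p under 0.05 in the authors' deposited table was held by 29 snoRNAs above 0 (16.4%, against 3.08% of all RNAs) and by 4 below 0 (2.26%, against 0.727%). These p-values are largest near -0.13 and not at 0, and the part of read depth in these shares was not tested. SNORD5, within the gene TAF1D, had a pair of 317 reads in the numerator library against 212 in the denominator library, which is 1.64-fold (1.38 to 1.96). Its log2 fold change in the authors' deposited table was 0.72, with q = 0.000486. SNORD43, a guide of small-subunit rRNA within RPL3, had 57 reads against 145, which is 0.432-fold (0.312 to 0.590), with q = 0.0236 in the authors' deposited table. SNORD5 was thus higher and SNORD43 lower in the numerator library. SNORD15B, a guide of large-subunit rRNA within RPS3, had q = 0.00768 in the authors' deposited table, where its log2 fold change was only 0.10. No pair of whole numbers up to 3000 was found for it, so its reads are unknown. SNORD58A and SNORD33 had the next lowest folds after SNORD43 among snoRNAs with 50 reads or more in a pair. The sequences of these 4 with a pair are given below from GENCODE 29, as the snoRNAs with the lowest deposited q above and below 0 and the next lowest folds; capitals mark the C box TGATGA and the D box CTGA.

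SNORD5: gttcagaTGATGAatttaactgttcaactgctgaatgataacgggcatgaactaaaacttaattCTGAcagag
SNORD43: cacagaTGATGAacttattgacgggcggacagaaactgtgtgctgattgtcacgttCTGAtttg
SNORD58A: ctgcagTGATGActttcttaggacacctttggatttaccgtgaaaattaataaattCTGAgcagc
SNORD33: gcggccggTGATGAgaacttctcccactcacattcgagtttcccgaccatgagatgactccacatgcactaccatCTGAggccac

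The boxes were searched on the RNA strand only, in windows set after the sequences were seen. TGATGA was in the first 20 bases of 100 of the 145 snoRNAs with a sequence (69.0%), against 1 of 138 H/ACA snoRNAs of GENCODE 29 (0.725%). CTGA was in the last 15 bases of 137 (94.5%), against 4 (2.90%). Both were found in 97 of the 145 (66.9%) and in 0 of the 138. The snoRNAs without these exact letters include SNORD98 and SNORD116-30, whose values are given further on. By RefSeq, the 177 RNAs ran from 48 to 237 bases, with a median of 85.

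The larger folds came with the smaller recovered pairs. Among 67 snoRNAs with 50 reads or more in 1 library of the pair, 0 were 2-fold or more higher (against 7.68% of all RNAs at that limit) and 1, SNORD43, was 2-fold or more lower (1.49%, against 0.761%). The 6 at 4-fold or more were SNORD116-22, SNORD11B, SNORD98, SNORD71, SNORD105 and SNORD59B. SNORD11B, a small-subunit guide within NOP58, had a pair of 25 reads against 2 (13.7-fold, 3.42 to 120). SNORD98, another small-subunit guide, had a pair of 9 reads against 1 (9.89-fold, 1.37 to 433). In the authors' deposited table SNORD11B had p = 0.00276 and q = 0.458, and SNORD98 had p = 0.00173 and q = 0.319. SNORD71 had 7 reads against 1, and its interval (0.988 to 347) reached both sides of 1, as did that of SNORD105 (0.615 to 260) from 5 reads against 1. In 15 snoRNAs a 1 stands in the pair, and in 41 neither number of the pair reaches 10. The deposited p-values do not follow the smallest pairs: SNORD30, SNORD34 and SNORD110 shared the pair of 1 read against 2, with p = 0.183, p = 0.428 and p = 0.0396 in the authors' deposited table.

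**Figure D1:**
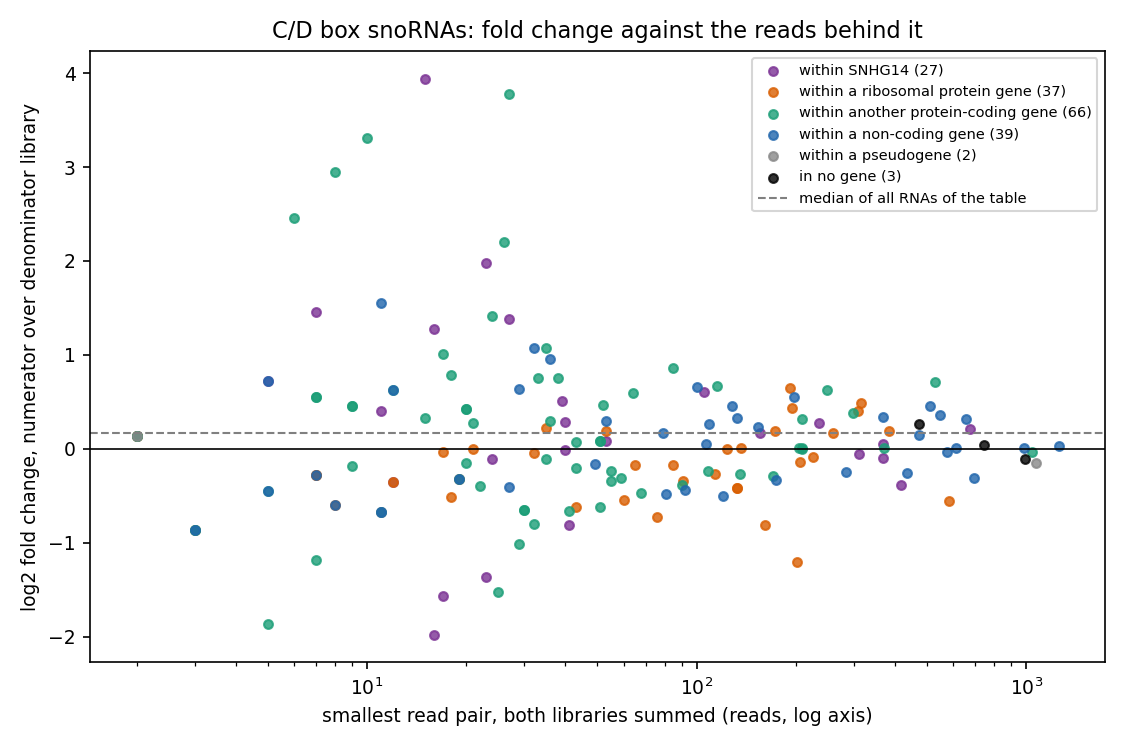
The deposited log2 fold change of the 174 C/D box snoRNAs with a read pair (vertical axis) is plotted against the sum of the smallest read pair (horizontal log axis), with colours for the class of host gene and a dashed line at the median of all RNAs, 0.16. Points spread widely at the left, from -1.98 to 3.94, and close in on 0 where the pairs are large.

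Among snoRNAs with 50 reads or more in a pair, the highest folds belonged to SNORD53, a large-subunit guide within WDR43, at 1.82-fold (1.15 to 2.92) from 53 reads against 32, and to SNORD5. SNORD45B, SNORD50B, SNORD18C and SNORD94 followed, between 1.55-fold and 1.59-fold. SNORD116-7, SNORD78, SNORD46 and SNORD104 completed the first 10, between 1.37-fold and 1.52-fold. The intervals of all 10 lay above 1, but the 10 were picked for their folds. Of the 67 snoRNAs at this limit, 16 had intervals above 1 and 5 below, against 453 and 158 of all 1446 RNAs at the limit. At the other end SNORD58A had 55 reads against 106 (0.570-fold, 0.404 to 0.797). SNORD33 had 222 reads against 359 (0.679-fold, 0.572 to 0.805), and SNORD116-20 had 171 against 245 (0.767-fold, 0.627 to 0.936). Of the 10 lowest only these and SNORD43 had an interval below 1. SNORD1A, SNORD27, SNORD55, SNORD14A, SNORD14D and SNORD42B stood between 0.707-fold and 0.788-fold with intervals that included 1.

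Guides of small-subunit rRNA, 39 snoRNAs, had 0.01 as their median log2 fold change in the authors' deposited table, with 21 above 0 and 18 below. Those with the largest pairs had different folds. SNORD25 had 292 reads against 319 (1.01-fold, 0.855 to 1.18), and SNORD45A had 162 against 137 (1.30-fold, 1.03 to 1.64). SNORD33 was lower, as given above. The 54 guides of large-subunit rRNA had a median of 0.02 in the authors' deposited table, with 28 above 0 and 26 below. SNORD80 had 604 reads against 649 (1.02-fold, 0.913 to 1.14), whereas SNORD76 had 347 against 307 (1.24-fold, 1.06 to 1.45). SNORD49A had 293 reads against 400 (0.805-fold, 0.690 to 0.938), and SNORD12B had 271 against 305 (0.976-fold, 0.826 to 1.15). Intervals lay above 1 for 4 of the 39 small-subunit guides and below 1 for 2. Of the 52 large-subunit guides with a pair, 9 lay above and 2 below. Over all RNAs 21.4% lay above and 7.72% below, so finding both kinds in a list is not a result about the guides. The 3 guides of both subunits were SNORD74 (1.01-fold), SNORD32A (0.969-fold) and SNORD68 (0.785-fold), all with intervals that included 1.

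**Figure D2:**
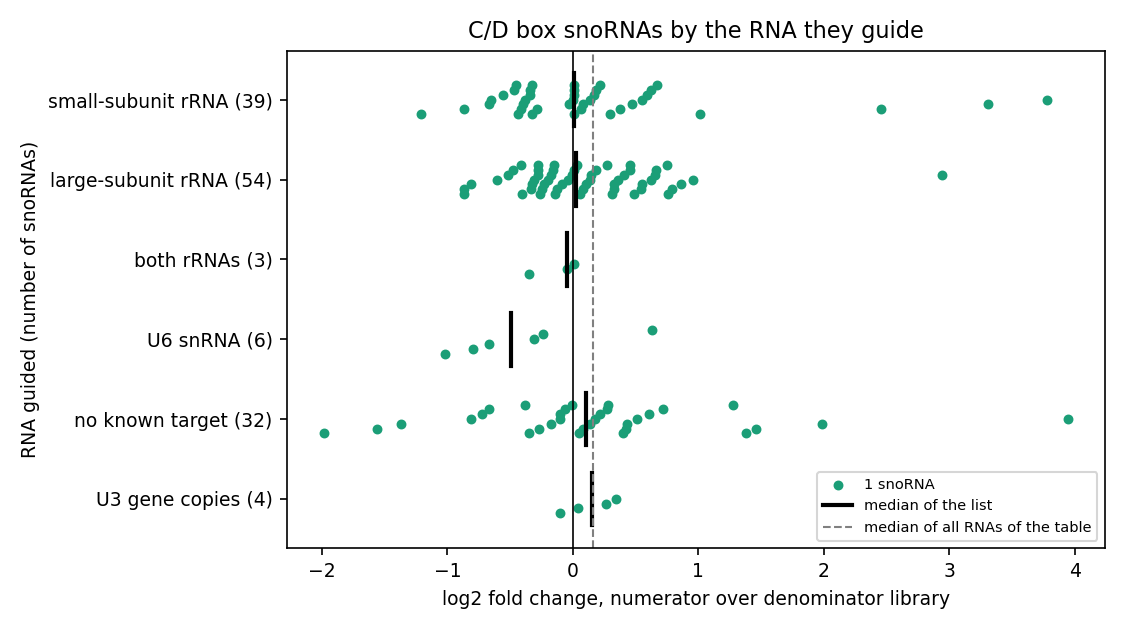
Deposited log2 fold changes of C/D box snoRNAs (horizontal axis) are grouped by the RNA they guide (rows, with the number of snoRNAs), 1 point per snoRNA, with a black bar at each median and a dashed line at the median of all RNAs. Medians of the small-subunit guides (0.01) and large-subunit guides (0.02) lie near 0, and 5 of the 6 U6 guides lie below 0. The 39 snoRNAs on no target list are not shown.

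The 6 guides of U6, the snRNA at the catalytic centre of the spliceosome, had 5 values below 0, against 1399 of all 3576 RNAs. Their median log2 fold change in the authors' deposited table was -0.49. Against either other centre, the median of all RNAs or -0.13, 5 of the 6 were also lower. The exception, SNORD94, also had the largest pair of the 6, with 145 reads against 103 (1.55-fold, 1.19 to 2.01), which does not give its depth. SNORD10 had 47 reads against 61 (0.846-fold, 0.566 to 1.26) and SNORD8 had 25 against 34 (0.808-fold, 0.462 to 1.39). SNORD67 (11 against 21), SNORD9 (9 against 20) and SNORD7 (4 against 7) stood at 0.575-fold, 0.494-fold and 0.628-fold. The intervals of these 5 included 1, and of the 6 only that of SNORD94 did not. Whether the other 5 stayed within counting error cannot be told, because their reads may be multiples of the pairs. Of the U6 guides 5 are printed whole because the pairing stretch is what defines the group. Capitals mark the longest run of Watson-Crick pairs with U6 (RNU6-1 of GENCODE 29), or with RNA5-8SN2, a small rRNA of the large subunit, for SNORD71 and SNORD96A, 2 guides of that RNA.

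SNORD7: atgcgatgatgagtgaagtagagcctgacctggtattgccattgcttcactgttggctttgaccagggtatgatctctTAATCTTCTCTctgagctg
SNORD8: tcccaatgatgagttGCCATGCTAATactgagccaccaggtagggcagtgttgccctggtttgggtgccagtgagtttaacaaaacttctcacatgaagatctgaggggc
SNORD10: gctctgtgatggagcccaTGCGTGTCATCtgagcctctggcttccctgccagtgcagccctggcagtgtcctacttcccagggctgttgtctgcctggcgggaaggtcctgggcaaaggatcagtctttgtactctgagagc
SNORD67: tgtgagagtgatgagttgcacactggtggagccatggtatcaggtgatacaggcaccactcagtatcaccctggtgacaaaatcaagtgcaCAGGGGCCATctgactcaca
SNORD94: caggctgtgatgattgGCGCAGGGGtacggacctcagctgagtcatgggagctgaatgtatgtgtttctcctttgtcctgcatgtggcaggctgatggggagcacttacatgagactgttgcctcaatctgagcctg
SNORD71: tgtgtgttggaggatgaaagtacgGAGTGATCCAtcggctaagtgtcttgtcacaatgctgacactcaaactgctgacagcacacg
SNORD96A: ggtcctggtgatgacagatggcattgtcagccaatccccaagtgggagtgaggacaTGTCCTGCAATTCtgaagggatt

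The run of SNORD8, GCCATGCTAAT, pairs with ATTAGCATGGC of U6. The runs were 9 to 11 bases long in the 6 U6 guides, whereas the other 139 snoRNAs with a sequence had a longest run of 5 to 9 bases with U6 and a median of 6. The 9 bases of SNORD94 were matched in length by 5 of those 139. With RNA5-8SN2 the run was 13 bases in SNORD96A and 10 in SNORD71, against 5 to 10 bases in the other 143, of which 1 reached the 10 of SNORD71. SNORD96A itself had 25 reads against 26 (1.06-fold, 0.585 to 1.90).

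Some C/D box snoRNAs take part in cutting the ribosomal RNA precursor. Of the gene copies of U3, 4 are kept here and SNORD3A is left out. SNORD3B-1, SNORD3B-2, SNORD3C and SNORD3D had pairs of 453 reads against 535, 359 against 383, 247 against 226 and 197 against 171. Of their folds, 3 of the 4 lay above 1 and 2 of the 4 above the median of all RNAs. SNORD3D was highest, at 1.27-fold (1.03 to 1.56). They share 98.2% to 100% of their bases, and SNORD3B-1 and SNORD3B-2 are identical. The rules for reads that fit several copies, not given in the sources used here, leave their values uncertain. SNORD14, also called U14, is needed for the small-subunit rRNA, and its 5 copies lie in HSPA8 and RPS13. SNORD14C had 177 reads against 193 (1.01-fold), SNORD14E 73 against 98 (0.818-fold), SNORD14A 54 against 79 (0.751-fold), SNORD14D 37 against 53 (0.767-fold) and SNORD14B 8 against 9 (0.976-fold). Every one of those 5 intervals included 1. SNORD22, another small-subunit processing RNA, had 40 reads against 39 (1.13-fold, 0.706 to 1.80). The pair SNORD50A and SNORD50B, of SNHG5, binds the K-Ras protein, and the genes are deleted in several cancers. SNORD50A had 11 reads against 16 (0.755-fold, 0.317 to 1.73) and SNORD50B had 59 against 41 (1.58-fold, 1.04 to 2.42), and these intervals overlap.

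The orphans, 32 snoRNAs, were mostly copies of SNORD116 and had 0.11 as their median log2 fold change in the authors' deposited table. SNORD116 copies lie in the imprinted transcript SNHG14, and the loss of the paternal cluster is tied to Prader-Willi syndrome. The table held 26 of them, from SNORD116-30 at 3 reads against 13 (0.253-fold, 0.0463 to 0.922) to SNORD116-22 at 14 against 1 (15.4-fold, 2.34 to 650.2). Of the 26, 15 lay above 0 (57.7%, against 60.9% of all RNAs) and 11 below. There were 4 intervals above 1 (15.4%, against 21.4%) and 2 below (7.69%, against 7.72%), shares near or under the background. Copies with the largest pairs differed. SNORD116-20 was lower, with an interval below 1, as given above. SNORD116-19 had 347 reads against 329 (1.16-fold, 0.993 to 1.35) and SNORD116-21 had 178 against 189 (1.03-fold, 0.838 to 1.28). SNORD116-13 had 169 reads against 199 (0.933-fold, 0.755 to 1.15), and the intervals of these last named copies included 1. SNORD116-8 had 19 reads against 8 (2.61-fold, 1.09 to 6.89). SNORD109A, the other listed snoRNA of SNHG14, had 5 against 2 (2.75-fold, 0.450 to 28.8), with p = 0.00287 and q = 0.459 in the authors' deposited table. SNORD116-17 had 18 reads against 5 (3.95-fold, 1.41 to 13.6), an interval that does not overlap that of SNORD116-19. The copies at the ends of the range are shown beside SNORD116-19. At the high end, SNORD116-17 and SNORD116-22 are identical or near-identical to it but have different listed folds. Capitals mark the boxes where found.

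SNORD116-17: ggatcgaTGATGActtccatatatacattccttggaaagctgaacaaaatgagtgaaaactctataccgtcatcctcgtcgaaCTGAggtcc
SNORD116-19: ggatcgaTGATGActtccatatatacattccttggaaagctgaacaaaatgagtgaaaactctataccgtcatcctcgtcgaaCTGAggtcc
SNORD116-22: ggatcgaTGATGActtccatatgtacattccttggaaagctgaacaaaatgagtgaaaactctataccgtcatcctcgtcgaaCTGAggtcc
SNORD116-24: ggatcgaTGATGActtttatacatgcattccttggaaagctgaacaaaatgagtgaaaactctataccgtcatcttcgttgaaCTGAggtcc
SNORD116-30: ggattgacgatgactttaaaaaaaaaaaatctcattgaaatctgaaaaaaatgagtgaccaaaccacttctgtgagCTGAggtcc

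SNORD116-17 and SNORD116-19 are identical over their 92 bases, and SNORD116-22 differs from both by 1 edit (98.9% identity). SNORD116-24, at 4 reads against 13 (0.338-fold, 0.0803 to 1.09), differs from SNORD116-19 by 6 edits. SNORD116-30 is the distant one, at 69.6% identity with SNORD116-19. Over all 26 copies identity ran from 64.2% to 100%, with 24 distinct sequences. Reads from within identical copies cannot be told apart, so the separate values of such copies are uncertain. SNORD116-20 and SNORD116-21, among others, differ from SNORD116-19 by only 1 edit. Only reads over that edit could tell them from it, so their separate values are uncertain too.

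**Figure D3:**
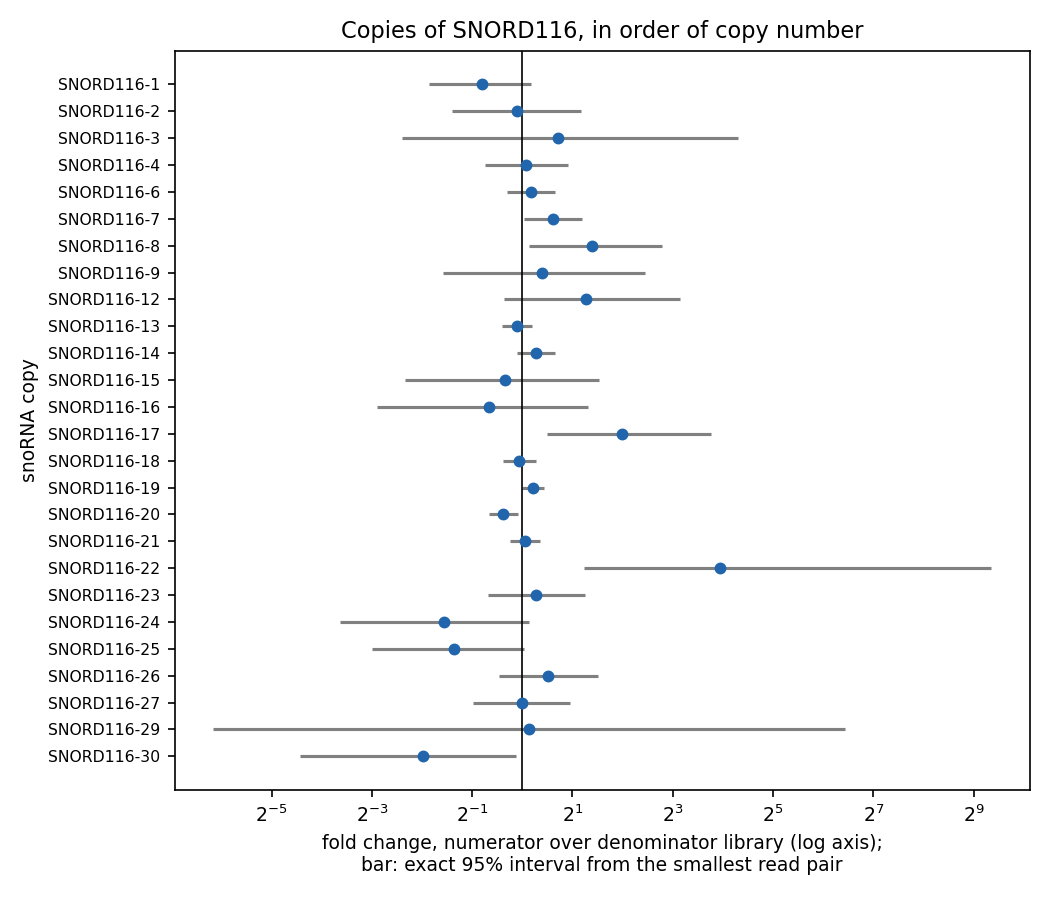
The fold of each of the 26 copies of SNORD116 (horizontal log axis, numerator over denominator library) is shown with its exact 95% interval from the smallest read pair, in order of copy number from top to bottom. SNORD116-22, SNORD116-17, SNORD116-8 and SNORD116-7 have intervals above 1, SNORD116-20 and SNORD116-30 below 1, and SNORD116-19, with the largest pair, sits near 1.

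Many snoRNAs share a host gene, from whose introns they are released when the host transcript is spliced. By position, 174 of the 177 lay within a gene, in 76 hosts, and 73 of them in 10 hosts with 4 or more. Of those 174, 93 overlapped an annotated exon of the host, where reads of the spliced host transcript cannot be told apart from reads of the snoRNA. The median log2 fold change of these 93 in the authors' deposited table was -0.01, against 0.14 for the 81 that overlapped no exon. Reads of unspliced host RNA may fall on those 81 too. Whether any row counts the mature snoRNA was not tested. Host classes and exon overlap were examined after the values were seen. The 38 snoRNAs within ribosomal protein genes had a median of -0.16 in the authors' deposited table and 13 values above 0. That is 34.2%, against the background of 60.9%. Of the 37 with a pair, 4 had intervals above 1 (against 21.4% of all RNAs) and 4 below (against 7.72%). Against the median of all RNAs 9 of the 38 were above, and against -0.13 there were 18. The 68 within other protein-coding genes had a median of 0.04 in the authors' deposited table, and the 39 within non-coding genes other than SNHG14 one of 0.05.

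GAS5, a non-coding transcript of the growth arrest state that itself encodes no protein, hosts 10 of the listed snoRNAs, and all 10 lay above 0 (against 60.9% of all RNAs), with 0.31 as their median log2 fold change in the authors' deposited table. Against the median of all RNAs 7 of the 10 lay above, and against -0.13 all 10 did. SNORD76, a large-subunit guide, was 1.24-fold, as given above, and SNORD78, another, had 113 reads against 85 (1.46-fold, 1.09 to 1.96). These were the 2 of 10 with an interval above 1, against 21.4% of all RNAs. SNORD81 had the highest fold of the family, from 23 reads against 13 (1.94-fold, 0.944 to 4.18), with q = 0.0629 in the authors' deposited table. SNORD80, with the largest pair of the family, stood at 1.02-fold, and SNORD74, with 470 reads against 513, at 1.01-fold (0.886 to 1.14). SNORD47 had 237 reads against 235 (1.11-fold), SNORD77 79 against 74 (1.17-fold) and SNORD79 71 against 57 (1.37-fold). SNORD44 (28 against 25) and SNORD75 (7 against 5) stood at 1.23-fold and 1.54-fold. Members of the family thus ranged from about equal to nearly 2-fold higher. For the GAS5 row itself the authors' deposited table has a log2 fold change of -0.08, and no pair was found.

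SNHG1 hosts 8, and 3 of them lay above 0 (37.5%, against 60.9% of all RNAs), with -0.25 as their median log2 fold change in the authors' deposited table, where the SNHG1 row itself had -0.13. SNORD28 was highest at 17 reads against 12 (1.56-fold, 0.700 to 3.57) and SNORD30 lowest at 1 against 2. SNORD25 was about equal, as given above. SNORD26 (123 against 160), SNORD31 (187 against 246), SNORD27 (37 against 55) and SNORD29 (32 against 49) ran from 0.717-fold to 0.844-fold. None of the 8 intervals excluded 1.

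**Figure D4:**
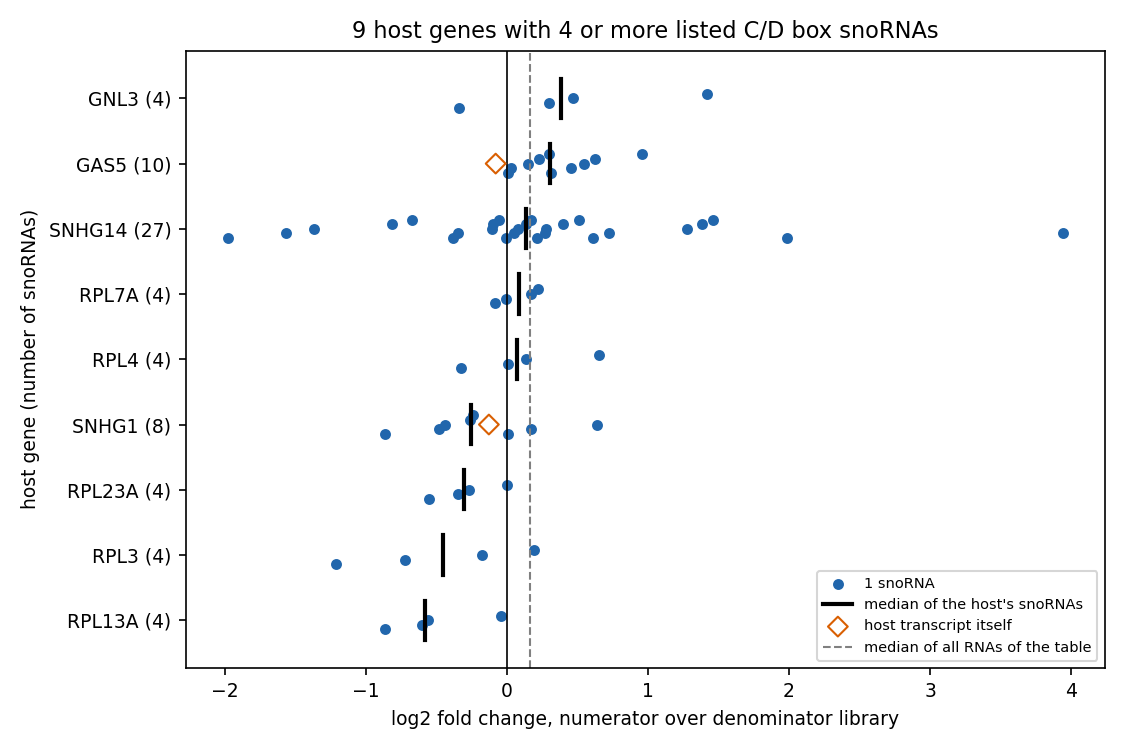
Deposited log2 fold changes (horizontal axis) are shown for the snoRNAs of 9 host genes with 4 or more (rows), 1 point per snoRNA, with a black bar at each median, diamonds for the host transcripts GAS5 and SNHG1, and a dashed line at the median of all RNAs. All 10 points of GAS5 lie above 0 and 7 of them above the dashed line, all 4 of RPL13A and of RPL23A lie below 0, and SNHG14 spans the widest range, from -1.98 to 3.94.

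RPL13A hosts SNORD32A, SNORD33, SNORD34 and SNORD35A, which have been tied to the response to lipid-induced oxidative stress. All 4 lay below 0 (against 1399 of all 3576 RNAs) and below the median of all RNAs, and 3 of the 4 lay below -0.13, as in RPL23A. SNORD33, at 0.679-fold, was the one with an interval below 1, and SNORD32A had 15 reads against 17 (0.969-fold, 0.451 to 2.06). SNORD35A had a smallest pair of 3 reads against 5 and SNORD34 one of 1 against 2, and their folds of 0.659 and 0.549 had intervals that included 1. SNORD35A had p = 0.0616 in the authors' deposited table, whereas SNORD144, with the same pair, had p = 0.765 there. The pair thus does not give the reads behind SNORD35A. RPL23A also had its 4 snoRNAs below 0: SNORD42A at 0.998-fold, SNORD4A at 0.828-fold, SNORD42B at 0.788-fold and SNORD4B at 0.683-fold, all with intervals that included 1. In RPL3, SNORD43 and SNORD83A (27 reads against 49, 0.605-fold, 0.364 to 0.988) had intervals below 1, whereas SNORD83B (0.885-fold) and SNORD139 (1.14-fold) did not.

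RPL4 and RPL7A had medians above 0 as deposited and below the median of all RNAs. SNORD18C of RPL4, a large-subunit guide, had 113 reads against 79 (1.57-fold, 1.17 to 2.12), and SNORD16 (1.01-fold), SNORD18A (1.10-fold, from 1 read against 1) and SNORD18B (0.799-fold) had intervals that included 1. The 4 of RPL7A, SNORD36A, SNORD36B, SNORD36C and SNORD24, ran from 0.944-fold to 1.16-fold. GNL3 had SNORD136 at 17 reads against 7 (2.67-fold, 1.05 to 7.61), with SNORD19B (1.38-fold), SNORD69 (1.23-fold) and SNORD19 (0.789-fold) nearer to 1.

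Intervals of snoRNAs that share a host were then set against each other, a step chosen after the values were seen. They did not overlap in 35 of 509 pairs, of which 32 of 351 were in SNHG14. The share among pairs of other RNAs was not computed, so these counts are not a result about shared hosts. Of those 32, 15 involve SNORD116-22, where the 1 in the pair may stand for 0, and 9 others involve SNORD116-17, whose value is uncertain. The remaining 8 are not free of this, since they include SNORD116-19, its identical copy, over SNORD116-20 and over SNORD116-30. Among the pairs outside SNHG14 were SNORD11B over SNORD70 in NOP58, at 13.7-fold against 1.06-fold, and SNORD139 over SNORD43 in RPL3, at 1.14-fold against 0.432-fold. Pairs were compared without adjustment, and the members of a host share their transcript.

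**Figure D5:**
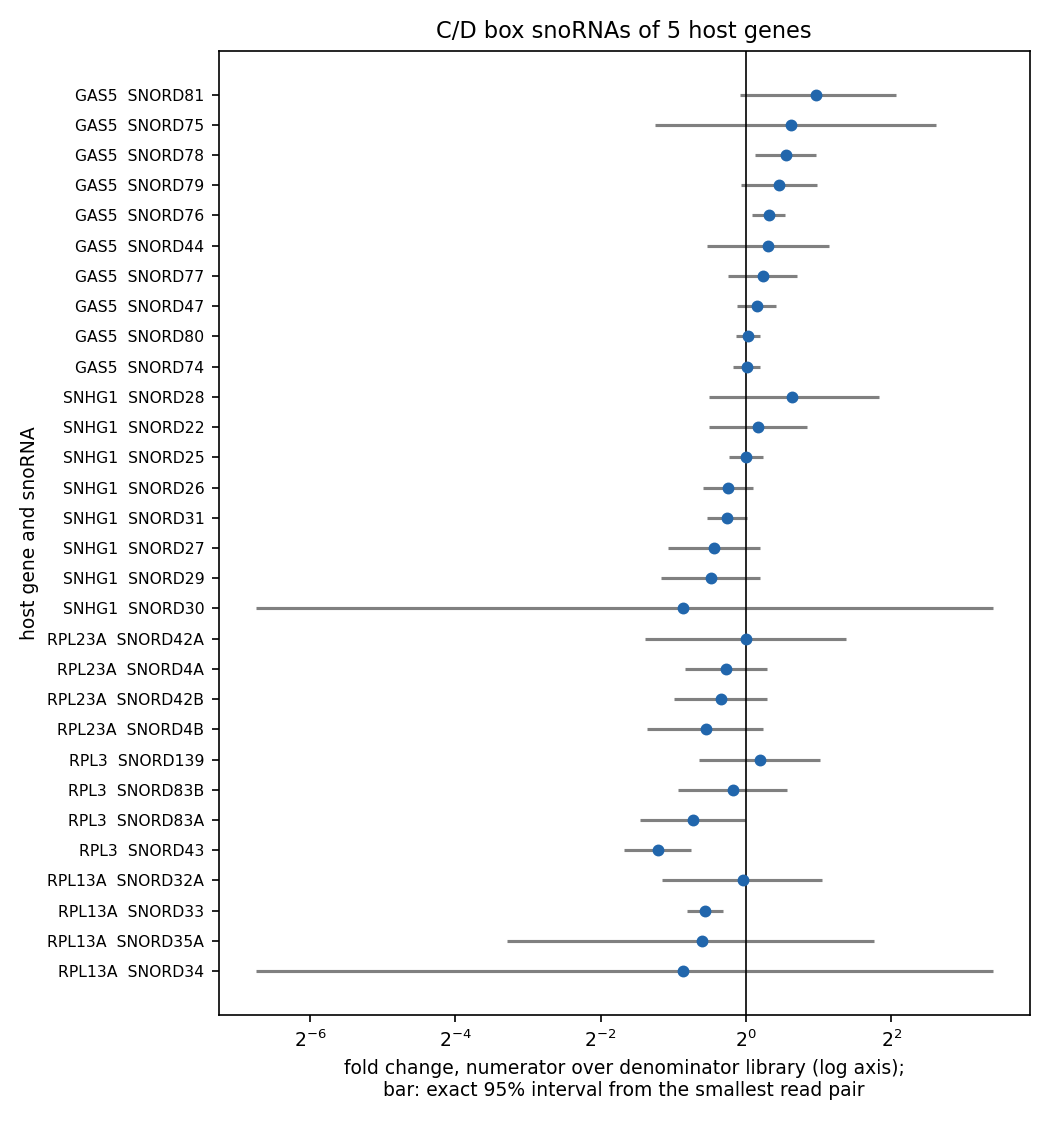
The fold of each snoRNA of 5 host genes (horizontal log axis, numerator over denominator library) is shown with its exact 95% interval from the smallest read pair, grouped by host from GAS5 at the top to RPL13A at the bottom. SNORD78 and SNORD76 of GAS5 have intervals above 1, and SNORD43, SNORD83A and SNORD33 have intervals below 1.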

How the data were processed

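Log2 fold changes, p-values and q-values were computed by the authors and deposited for 3576 non-coding RNAs, per the file headers, which name no method. The submitters' processing notes name only the mouse build mm10, although the cells are human; no genome coordinates are printed. The aligner, counting and strand setting were not stated in these sources. The table also has 2 columns of per-sample values that match neither sample's labels, and these were not used.

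The most frequent log2 fold change, shared by 66 RNAs, was taken as equal reads, and the smallest whole-number pair up to 3000 giving each ratio (relative tolerance 1.5e-09) was sought; it was found for 3535 RNAs. This step was tested on simulated data. The members, lists and tests were chosen with earlier results of these data known. Named snoRNAs were those with q under 0.05, the 10 highest and 10 lowest with 50 reads or more in a pair, hosts with 4 or more (1 of these hosts is not reported here), SNORD14, SNORD22 and SNORD50, and the best covered of each target list; SNORD11B, SNORD98, SNORD71, SNORD105, SNORD59B, SNORD96A and several SNORD116 copies are named besides, after their values were seen. Best covered means the largest smallest pair, so snoRNAs without a pair, such as SNORD15B and SNORD17, could not be ranked. Host genes came from RefSeq positions set on GENCODE 29, on the same strand for 145 snoRNAs, while 32, the GAS5 family among them, had no strand to check. Lists follow textbook target assignments. Host class, exon overlap, the box windows, the pairs within a host, the centring on p-values and the sequences shown were chosen after values or sequences were seen. Alternatives were median scaling, other fold and read thresholds, 1 value per symbol and leaving out near-identical copies. Software was edlib 1.3.9.post1, scipy 1.17.1, pandas 2.3.3, numpy 2.4.6 and matplotlib 3.10.9 under Python 3.11.15.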

Additional observations from a re-analysis of the deposited data

How the results depend on the processing

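Of 117 alternative values, 106 stayed within a wide tolerance, namely the counting interval of a single snoRNA, a factor of 1.5 on counts, and for a median an order-statistic range over the snoRNAs (their full range in small lists). That tolerance admits changes of sign: of 18 medians, 8 changed sign when scaled to the median of all RNAs, small-subunit guides (to -0.16), large-subunit guides (to -0.14), orphans, U3 copies, SNHG14, RPL4, RPL7A and the whole class, and 1 when centred on p. The count above 0 went to 70 and 108, against 93. With all RNAs' median as 0, the median log2 fold change of the snoRNAs moved to -0.15 and SNORD15B turned to -0.0601, by the subtraction of 0.16. Centring on the RNAs with a deposited p above 0.95, whose median log2 fold change is -0.13, moved it to 0.14, guides of both subunits to 0.0878 and SNORD15B to 0.24; this centring was chosen after the data were seen. So the side of 0 on which the class lies depends on the value taken as no difference. A 4-fold threshold gave 6 higher and 0 lower, and a 1.5-fold threshold 32 and 26, by construction. Requiring 50 reads in a pair left 0 higher and 1 lower at 2-fold, from 67 snoRNAs. Without the 24 near-identical copies the median was 0.01. No paired analysis was possible because each dose has 1 library. A larger pseudocount and a filter on low values had been planned but were not run, as they need per-sample values. Intervals are widest where the recovered pair is small, as for SNORD30 (0.0093 to 10.5), but the pair is not the depth, which is unknown here.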
